A study of Mus musculus with 34 samples.

Results

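The 2 teratomas of this series are tumours that form when embryonic stem (ES) cells are injected into a mouse and differentiate there, and their DNA methylation was compared at CpG islands with that of normal adult tissue. They account for 2 of the 34 arrays of the series and were taken by their labels. The comparison group comprised 16 arrays of adult tissue from mice of 3 months, 2 arrays each of colon, pancreas, brain, kidney, liver, lung, muscle and spleen. Further groups were 5 whole embryos of 8.5 to 12.5 days post coitum, 5 arrays of ES cells differentiated in vitro (embryoid bodies and retinoic acid treatment of TT2, for the second of which the methods give J1, endoderm on 2 arrays and mesoderm from EB5) and 3 of undifferentiated ES cells, 1 for each of EB5, J1 and TT2. Methylated DNA was precipitated with an antibody against 5-methylcytidine (mDIP), and bound DNA in Cy5 was hybridised against input DNA in Cy3 on Agilent CpG island arrays.

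As a model the teratomas have several limits. The labels give J1 as their parent line, whereas the study's methods give the ES cells D3 and C4, injected under the skin of NOD-SCID mice, which lack B and T lymphocytes, and taken 2 weeks later. The adult DNAs came from C57Bl/6, so that the genetic background of the graft and its growth as a tumour cannot be told apart here. Neither the labels nor the methods say whether the 2 arrays come from separate tumours, so the spread between these arrays may be technical. In the comparison with adult tissue, p-values rest mainly on the spread among the adult arrays, which make up most of the fit. A teratoma also holds vessels and blood cells of its host. In bulk DNA a smaller share of cells that carry a mark and a lower level of that mark in every cell cannot be told apart.

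CpG islands are stretches rich in the CG dinucleotide, and most lie at the starts of genes. In normal cells most of them stay free of methylation, while a minority are methylated in every tissue. Imprinted genes are the special case: at their control regions the copy from one parent carries methylation that was set in the germ cells, is kept through development and silences or activates the neighbouring genes according to parent of origin. ES cells in culture are known to lose or gain such imprints, and teratomas are the usual test of whether ES cells can form tissue of all germ layers.

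The measure used throughout is the island methylation score (IMS), the mean over the probes of an island of the log ratio of bound over input, expressed in SDs of all probes of the array. It has no percent methylation attached, and 0 is the average probe. On 13272 islands of the autosomes the IMS could be taken on every array, from at least 3 probes each and 5 in the median island. An island was called when limma, fitted to the 18 arrays of teratomas and adult tissue, gave a Benjamini-Hochberg adjusted p under 0.05. Differences below are teratoma mean minus adult mean of the IMS, with the standard error of the fit and n = 2 and n = 16 arrays.

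Promoter sequences are shown for 4 genes named in the results, as RefSeq windows of 300 bases (250 before to 50 after the start) on GRCm38.p6. Each runs 5′ to 3′ along its gene, with every CG dinucleotide in capitals. Atf4 and Myd88 had islands that were higher in the teratomas, whereas Nap1l5 and Zrsr1 are imprinted genes whose islands had lower scores. Of these islands, that of Zrsr1 was not called (limma, adjusted p = 0.0586). The windows lie at chr15:80254934-80255233 (+) for Atf4, chr9:119339969-119340268 (-) for Myd88, chr6:58907077-58907376 (-) for Nap1l5 and chr11:22971755-22972054 (+) for Zrsr1.
Atf4: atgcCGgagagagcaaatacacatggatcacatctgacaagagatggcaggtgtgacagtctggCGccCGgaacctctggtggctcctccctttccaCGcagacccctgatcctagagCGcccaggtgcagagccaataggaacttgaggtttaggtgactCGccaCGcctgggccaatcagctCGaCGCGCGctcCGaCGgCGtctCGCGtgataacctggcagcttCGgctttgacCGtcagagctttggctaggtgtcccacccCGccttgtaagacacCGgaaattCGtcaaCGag
Myd88: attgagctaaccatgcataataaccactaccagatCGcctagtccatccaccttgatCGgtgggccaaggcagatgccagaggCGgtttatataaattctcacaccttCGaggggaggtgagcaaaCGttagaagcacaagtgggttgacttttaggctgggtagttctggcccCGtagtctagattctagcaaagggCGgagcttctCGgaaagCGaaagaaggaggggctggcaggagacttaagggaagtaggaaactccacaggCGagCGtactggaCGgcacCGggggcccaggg
Nap1l5: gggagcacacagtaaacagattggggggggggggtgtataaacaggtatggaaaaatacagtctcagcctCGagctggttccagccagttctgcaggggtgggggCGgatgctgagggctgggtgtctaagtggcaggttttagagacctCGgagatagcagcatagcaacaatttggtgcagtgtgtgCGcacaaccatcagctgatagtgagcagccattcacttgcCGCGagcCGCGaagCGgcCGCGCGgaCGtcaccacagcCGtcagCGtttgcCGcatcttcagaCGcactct
Zrsr1: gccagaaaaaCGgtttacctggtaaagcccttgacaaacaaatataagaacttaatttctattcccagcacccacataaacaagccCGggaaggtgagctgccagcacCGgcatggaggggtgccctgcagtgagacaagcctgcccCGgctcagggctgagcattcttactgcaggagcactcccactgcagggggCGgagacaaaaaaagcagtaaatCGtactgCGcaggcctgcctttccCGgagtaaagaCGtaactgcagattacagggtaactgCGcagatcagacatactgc
The Atf4 window holds 22 CG dinucleotides, that of Myd88 13, that of Nap1l5 17 and that of Zrsr1 10. Over all 32851 RefSeq windows of this length the median was 7, and 94.6% held at least 1 CG. By the array annotation the probes of the Atf4 island reach from -118 to 985 bases from the start and those of the Nap1l5 island from -161 to 420. If the annotated starts are those of the windows, 2 probes of each fall in the window shown. Probes were not mapped to the printed sequences. The 9 probes of the Zrsr1 island begin 2 bases before the start, and the 5 probes at Myd88 begin 31 bases after it.

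The signal of the teratoma arrays lay within the range of the adult arrays. The median input signal was 4.40 and 4.90 times its background, against 3.07 to 6.98 on the adult arrays. Both were hybridised on the smaller of 2 grids in use, as were 6 of the 16 adult arrays and all 5 embryos. Each teratoma was alone on its slide and its scan day, which could enter the fit only as random blocks (40 and 37 calls, against 44 without). No adult array shared the scanner software version of teratoma 2, so that fitting the version as a block is the same as leaving that array out. The array labelled J1 stands apart among the ES cells: its values in the deposited table correlate with its scanner file at r = 0.113, and it is given separately below. The 2 teratomas differed from each other by an SD of 0.181 per island. The colon and pancreas pairs, each also on 1 grid, had 0.180 and 0.234. The other tissue pairs each set an array of the larger grid against 1 of the smaller and had 0.273 to 0.339. Of 13272 islands, 723 differed by over 0.5 between the teratomas.

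Between teratomas and adult tissue 44 islands were called, 37 higher and 7 lower in the teratomas, which is 0.332% of those tested (0.279% higher and 0.0527% lower), and 1051 islands had an unadjusted p under 0.05. Both teratomas lay above all 16 adult arrays at 262 islands (1.97%) and below all of them at 111 (0.836%). Calls were then split by adult level. Among 4446 islands with a score below 0 on each of the 16 adult arrays, 12 were called higher and 0 lower. Of the 980 islands above 0.75 on every adult array, 0 were called higher and 7 lower, so that all called losses lay among islands methylated throughout adult tissue. This split used the adult values themselves and is a description. The median difference over all islands was 0.05, or -0.05 on probes with input well above background and 0.008 against adult arrays of the smaller grid only. With normexp background correction of the intensities in place of the scanner software's ratios 293 islands were called, 147 higher and 146 lower, so that the excess of gains was not seen there. With the scores that the authors deposited, 28 of 38 calls were higher. With the arrays of each tissue averaged there were 226 calls. Without teratoma 1 there were 28 calls and without teratoma 2 there were 11.

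**Figure D1:**
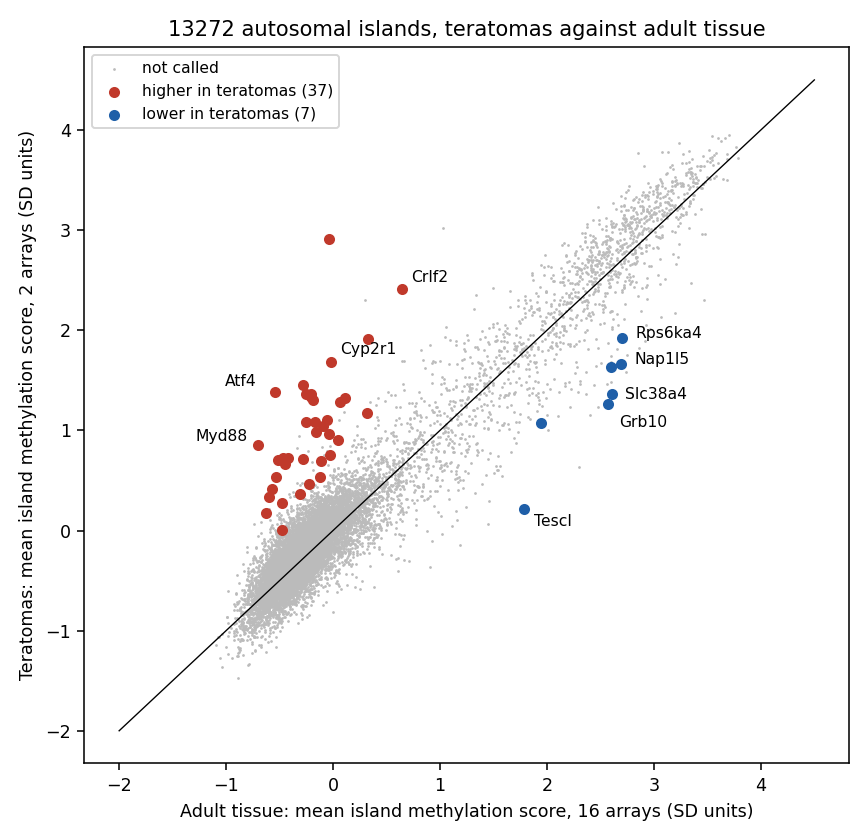
Mean island methylation score of the 2 teratomas (vertical axis) against the mean of the 16 adult arrays (horizontal axis), both in SD units of the array, for 13272 autosomal islands, with the diagonal drawn. The 37 islands called higher (red) start from low adult scores, and the 7 called lower (blue) all start from high adult scores.

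Methylated islands of imprinted genes had lower scores in the teratomas. Scores were available for 57 islands of 42 imprinted genes, of which 0 were called higher and 4 lower: those at Grb10, Slc38a4, Nap1l5 and Kcnq1. Over all islands 0.0527% were called lower. Before adjustment 16 imprinted islands had a lower and 3 a higher score at p under 0.05, both teratomas lay below all 16 adult arrays at 13 of the 57 (22.8%, against 0.836% of all islands), and the median difference was -0.11 against 0.05. Both counts were sensitive to scoring: 0 were called lower and 1 lay below all adult arrays with normexp, 0 and 5 when arrays were standardised by median and MAD, and 0 and 2 on median-centred log2 ratios. The 4 calls also became 2 without kidney replicate 2 and 8 without colon replicate 2, and none was kept without either teratoma.

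Imprinted islands methylated in the adult were then taken by themselves. Of the 57, 24 lay above 0.75 on all adult arrays. Their median IMS was 1.65 in teratoma 1 and 1.91 in teratoma 2, while the 16 adult arrays had medians of 2.07 to 3.08 and the 5 embryos of 2.19 to 2.89. The teratomas thus lay below every adult and embryo array. The other 956 islands above 0.75 on all adult arrays had medians of 2.64 and 2.78 in the teratomas, inside the 2.35 to 2.93 of the adult arrays. Of the 24 imprinted islands 21 had a lower teratoma mean, with a median difference of -0.83. Among the other 956 there were 323, with a median difference of 0.12. Of the 24, 15 had a lower and 1 a higher score at an unadjusted p under 0.05, and of the other 33 imprinted islands 1 was lower (Grb10, -0.44) and 2 were higher (Slc22a3 and Inpp5f, both 0.42).

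Setting the 2 kinds of island against each other within an array cancels any shift that methylated islands of that array share. The median of the 24 imprinted islands minus that of the 956 others was -0.99 and -0.87 in the teratomas. On the adult arrays it ran from -0.30 to 0.41 with a median of -0.08, and on the embryo arrays from -0.21 to -0.01. Both teratomas were outside the range of both groups, and this held for adult tissue under each of the 11 other ways of scoring that were tried, normexp included (-1.35 and -1.18, against -0.56 to 0.37). Among those ways, keeping chromosomes X and Y could not change the scores of these autosomal islands. Sorted beta cells, a single array kept out of the fits, were at -0.51, also below all adult arrays. The pancreatic lines Min6 and aTC were at -0.15 and -0.12. Over the 7 islands called lower, medians were 1.67 in beta cells, 1.53 in Min6 and 1.41 in aTC, against 1.41 and 1.34 in the teratomas. In ES cells differentiated in vitro the gap was -2.46 to -1.29, in undifferentiated EB5 cells -2.02 and in TT2 cells -1.83. The array labelled J1, the line the labels name as the parent, was at 0.12, within the adult range. On this scale the teratomas lay between adult tissue on one side and EB5, TT2 and the differentiated cells on the other, but with normexp (-2.61 to -0.03) and on log2 ratios (-2.71 to -1.16, teratomas -1.41 and -1.35) they lay inside the range of the differentiated cells. These islands were picked by their adult values, so the numbers describe and no test was made on them.

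**Figure D2:**
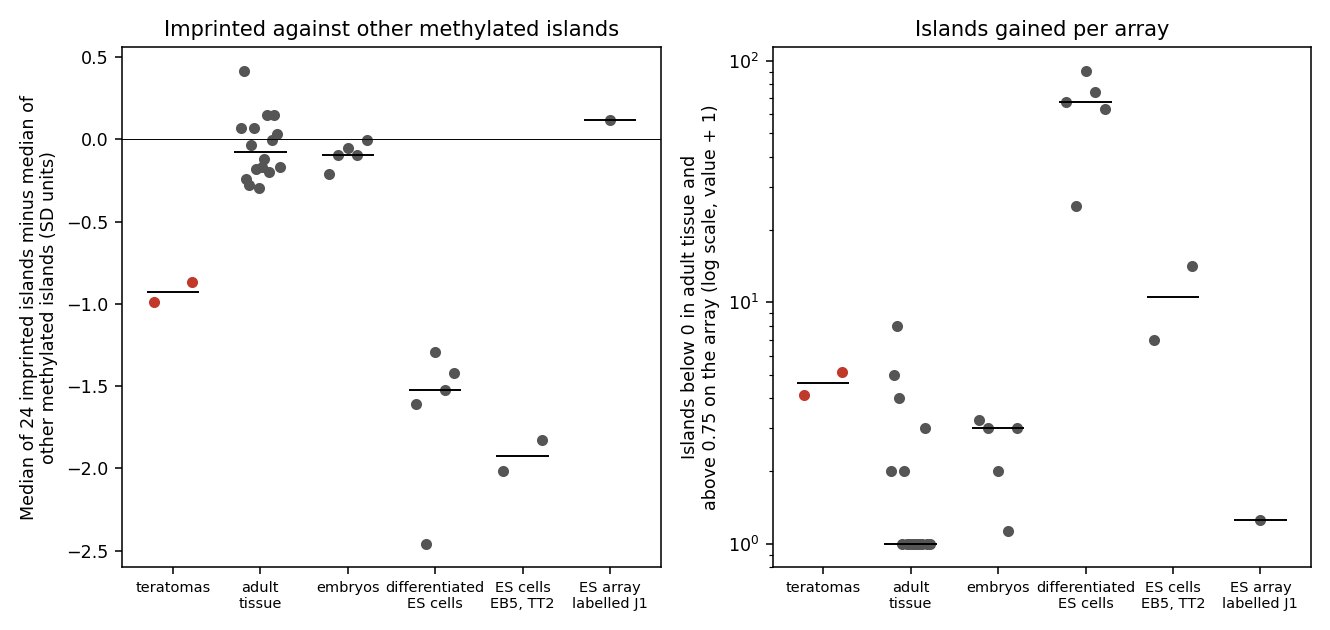
Left, the median score of 24 imprinted islands minus that of 956 other islands, all above 0.75 on every adult array, per array in SD units. Right, the number of islands below 0 in adult tissue that lay above 0.75 on an array (log axis, value + 1, adult arrays scored on islands chosen without their own tissue). Points are arrays and lines are medians of the group; the teratomas (red, -0.99 and -0.87 on the left) lie below all adult and embryo arrays on the left and far below the differentiated ES cells on the right.

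At Grb10, which encodes an adaptor that restrains insulin and growth factor signalling, 3 islands were measured. The one inside the gene (chr11:11925467-11926345, 10 probes) scored 1.19 and 1.34 in the teratomas against 2.02 to 3.12 in adult tissue with a median of 2.61. It fell by 1.31 ± 0.23 (limma, adjusted p = 0.00568). The 5 embryos scored 2.07 to 2.95, while EB5 and TT2 had -0.14 and -0.28 and the array labelled J1 had 3.31. Neither of the other Grb10 islands, which have adult medians of 0.02 and 0.17, was called. The input signal of both teratomas was above that of all adult arrays at the called island, with a mean difference of 0.28 in log2 units, and its part in the result was not tested.

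Slc38a4 encodes an amino acid transporter and is expressed from the paternal copy. Its island (chr15:96882413-96882877, 3 probes) had 1.41 and 1.32 in the teratomas, below the adult range of 1.77 to 3.09. The difference of -1.24 ± 0.27 stood just inside the threshold (adjusted p = 0.0496 in limma), and 34 of 45 alternatives that scored this island moved it outside.

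Nap1l5, a nucleosome assembly gene that lies within a neighbour and is also expressed from the paternal copy, had an island at its start (chr6:58836201-58836830, 5 probes), whose window is printed above. The teratomas scored 1.61 and 1.71 and adult arrays 1.97 to 3.14, lowest in liver replicate 1. It fell by 1.03 ± 0.19 (limma, adjusted p = 0.0148), and the groups did not overlap. Differentiated ES cells were spread from -0.81 to 2.01.

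The Kcnq1 gene encodes a potassium channel, and its domain is controlled from an imprinted island inside the gene. An island deep within the gene (chr7:143104693-143106020, 8 probes) scored 1.57 and 1.70 in the teratomas and 2.07 to 3.07 in adult tissue. It fell by 0.97 ± 0.20 (limma, adjusted p = 0.0331), and the call was lost in 16 of 49 alternatives. The second Kcnq1 island, 35 bases from a start, was unmethylated in adult tissue with a median of -0.08, and its 2 teratoma scores were 0.08 and 0.21.

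Further imprinted islands had both teratomas below all adult arrays without being called, at Zrsr1, Peg10, Plagl1, Mcts2, Peg3, Nnat and Inpp5f and at 2 islands of Gnas. Zrsr1, a splicing factor gene that arose as a retrogene, came nearest, with 1.01 and 1.29 against 1.53 to 2.86, a difference of -1.25 ± 0.28 and an adjusted p in limma of 0.0586. At Peg10, a gene derived from a retrotransposon and needed in the placenta, the teratomas had 1.1 and 1.37 and adult tissue 1.50 to 3.14. Plagl1, a zinc finger gene that restrains cell growth, had 1.22 and 1.74 against 1.90 to 3.14, and it is also the island with the largest difference among the tumour suppressors (-1.12 ± 0.28, adjusted p = 0.113). Peg3, another zinc finger gene, had 1.61 and 1.89 against 1.95 to 3.07. The other islands had differences of -1.09 to -0.69.

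Some imprinted genes did not follow. The Gnas locus, which encodes the stimulatory G protein subunit and several products from alternative promoters, held 4 measured islands. The first along the chromosome (chr2:173927575, 10 probes) scored 3.04 and 3.16, above all adult arrays (1.83 to 2.78), with a difference of 0.67 ± 0.20 and an adjusted p in limma of 0.229. The next pair scored 1.69 and 1.81 and then 1.30 and 1.63, below all adult arrays, and the last, at a start that is unmethylated in adult tissue, had -0.39 and -0.52. Opposite differences thus stood side by side within one locus, none of them called. At Cdkn1c, a cell cycle inhibitor, the teratomas (2.03 and 2.38) lay within the adult range of 1.60 to 2.70, although EB5 and TT2 had 0.16 and 0.56. Dlk1 (1.96 and 1.93 at the methylated island, adult 1.12 to 2.51) and Usp29 (2.33 and 2.48, adult 1.78 to 3.47) were also within the range. Mest, Peg12 and one Igf2r island had teratoma 1 below all adult arrays and teratoma 2 within their range.

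**Figure D3:**
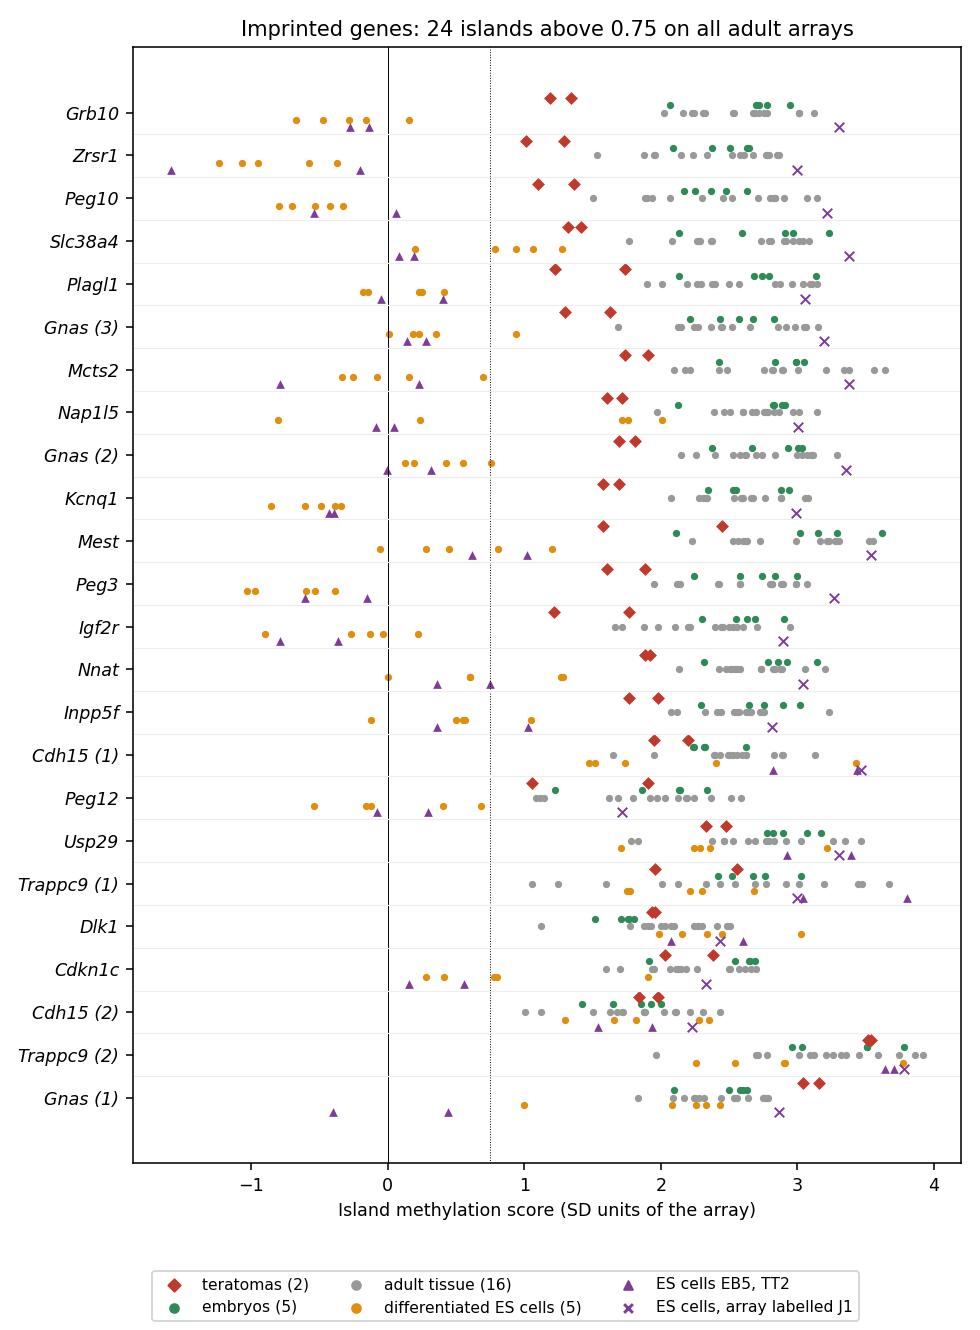
Island methylation scores (horizontal axis, SD units) of the 24 islands of imprinted genes that lay above 0.75 on all adult arrays, 1 row per island and 1 point per array; numbers in brackets order the islands of a gene along the chromosome. Teratomas (red diamonds) lie left of all adult points (grey) at 13 islands, right of them only at the first Gnas island, and to the right of EB5 and TT2 (triangles) at 18 of the 24, as do 540 of the 956 other methylated islands, which are not drawn.

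The other groups placed these values. Both teratomas were below all 5 embryos at 16 of the 24 methylated imprinted islands and above all 5 differentiated ES cell arrays at 17. Of the 956 other methylated islands, 56 were below all embryos and 344 above all differentiated arrays. In the fit of all 5 groups 0 imprinted islands were higher and 1 lower in the teratomas than in embryos (0.203% and 0.0452% of all islands), the one being Phlda2, a placental growth gene, with scores of -0.63 and -0.70 against -0.12 to 0.31 (limma, adjusted p = 0.0431). These counts depend on the fit, since teratomas and embryos fitted alone gave 569 calls over all islands against 33. The spread in the fit of 5 groups includes that among the undifferentiated ES cells, which at Grb10 had 3.31 on the array labelled J1 but -0.14 in EB5 and -0.28 in TT2. There a difference from embryos of -1.38 had an adjusted p in limma of 0.449. A low count therefore does not show that imprinted islands were alike in teratomas and embryos. Against differentiated ES cells 9 of the 57 were higher and 0 lower, while over all islands 1.52% were higher and 5.27% lower.

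Outside the imprinted genes 3 islands were called lower. Tescl, a gene related to the calcium-binding protein tescalcin, had the largest difference of all called losses. Its island (chr7:24042008-24042580, 5 probes) had scores of 0.11 and 0.32 in the teratomas, against 1.17 to 2.21 in adult tissue and 1.53 to 2.00 in embryos. It fell by 1.57 ± 0.20 (limma, adjusted p = 0.000181) and was lower than in embryos as well (adjusted p = 0.0075). EB5 and TT2 scored -0.01 and 0.08.

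Mgat4b, which encodes an enzyme that branches N-glycans, scored 0.99 and 1.16 at chr11:50074328-50074806 against 1.50 to 2.56 in adult tissue (-0.87 ± 0.18, limma adjusted p = 0.0396), and the call was lost in 26 of 46 alternatives. Embryos had 0.85 to 1.28, so the teratomas lay within the embryo range and below that of adult tissue. The input signal at this island was 0.26 log2 units higher in the teratomas and above the adult range in teratoma 1, and its part was not tested. Rps6ka4, a kinase that phosphorylates histone H3 and CREB, had 1.83 and 2.02 at chr19:6896913-6898640 against 2.35 to 3.02 (-0.78 ± 0.15, limma adjusted p = 0.0238). Its call was lost in 15 of 49 alternatives. Here embryos scored -0.14 to 0.27, and the teratomas were higher than they were (limma, adjusted p = 0.0344), in between the embryonic and the adult level.

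Among the called gains, Atf4 stood first by its p-value. It encodes the transcription factor of the integrated stress response, and by the array annotation its island covers the start (chr15:80082298-80083448, 10 probes). The teratomas scored 1.43 and 1.33, whereas the 16 adult arrays had -0.66 to -0.25 with a median of -0.56. The difference was 1.92 ± 0.10 (limma, adjusted p = 1.32e-10), and the call held under all 49 alternatives. Embryos lay at -0.55 to -0.46, the array labelled J1 at -0.53 and TT2 at -0.23, but EB5 reached 2.19. Of the differentiated cells some arrays were as high as 1.27 and others as low as -0.73.

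Other gains are given by gene, with no theme tested. Crlf2, a subunit of the receptor for the cytokine TSLP, scored 2.52 and 2.30 at chr5:109797210-109797438 on 3 probes, against 0.13 to 1.47 in adult tissue (1.76 ± 0.27, limma adjusted p = 0.00185). Its input signal was 0.36 log2 units lower in the teratomas, below the adult range in teratoma 1, and the part of this in the score was not tested. Myd88, the adaptor of Toll-like receptors, scored 1.02 and 0.68 at its start (chr9:119188256-119188729, 5 probes), while adult arrays had -1.30 to -0.29 and embryos -0.70 to -0.15. It rose by 1.55 ± 0.17 (limma, adjusted p = 2.97e-05) in every alternative that scored it. All 3 undifferentiated ES cell arrays were low at Myd88, at -0.77 to -0.66.

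Lhx5 and Pomc were higher at islands inside the gene rather than at a start. Lhx5, a LIM homeobox factor of the developing forebrain, scored 1.07 and 1.65 at chr5:120700399-120701149 against -0.62 to 0.21 (1.61 ± 0.21, limma adjusted p = 0.000227). Its input signal differed by -0.13 log2 units and lay below the adult range in teratoma 1, and its part was not tested. Pomc, the precursor of corticotropin and melanocortins, scored 1.18 and 1.54 at chr12:3959805-3960333 against -0.69 to 0.30 (1.57 ± 0.20, adjusted p = 0.000214 in limma). In neither did the groups overlap.

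Atf7ip, a partner of the histone methyltransferase SETDB1, scored 1.24 and 1.44 at its start (chr6:136482742-136483432, 6 probes) against -0.71 to 0.10 in adult tissue (1.54 ± 0.16, limma adjusted p = 1.11e-05). EB5 and TT2 had 2.79 and 2.57 and the differentiated cells 1.42 to 3.08, so that this island was high in ES derivatives other than the array labelled J1, at -0.29. Zfp869, a zinc finger gene, scored 1.04 and 1.14 at its start (chr8:72645418-72645978, 5 probes) against -0.55 to 0.07 in adult tissue, -0.33 to -0.06 in embryos and -0.50 to 0.07 in differentiated cells. It was higher in the teratomas than in each of these groups (limma adjusted p = 6.64e-06, 0.000831 and 7.94e-05).

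Cyp2r1, the vitamin D 25-hydroxylase, scored 1.32 and 2.04 at its start (chr7:114353691-114354337) against -0.54 to 1.01 (1.70 ± 0.29, limma adjusted p = 0.0051). Slc16a8, a lactate transporter of the retinal pigment epithelium, scored 1.16 and 1.45 at chr15:79079069-79080066 against -0.70 to 0.22 (1.49 ± 0.21, adjusted p = 0.000477 in limma). Ano7, of the anoctamin family, scored 1.89 and 1.95 at chr1:95231810-95232048 on 3 probes against -0.32 to 1.28 (1.59 ± 0.33, adjusted p = 0.0359 in limma) and was called in 33 of 47 alternatives. Of the 10, 7 were also called higher than embryos and 3 higher than differentiated ES cells (0.203% and 1.52% of all islands), but they were chosen for high teratoma scores, which these comparisons share.

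**Figure D4:**
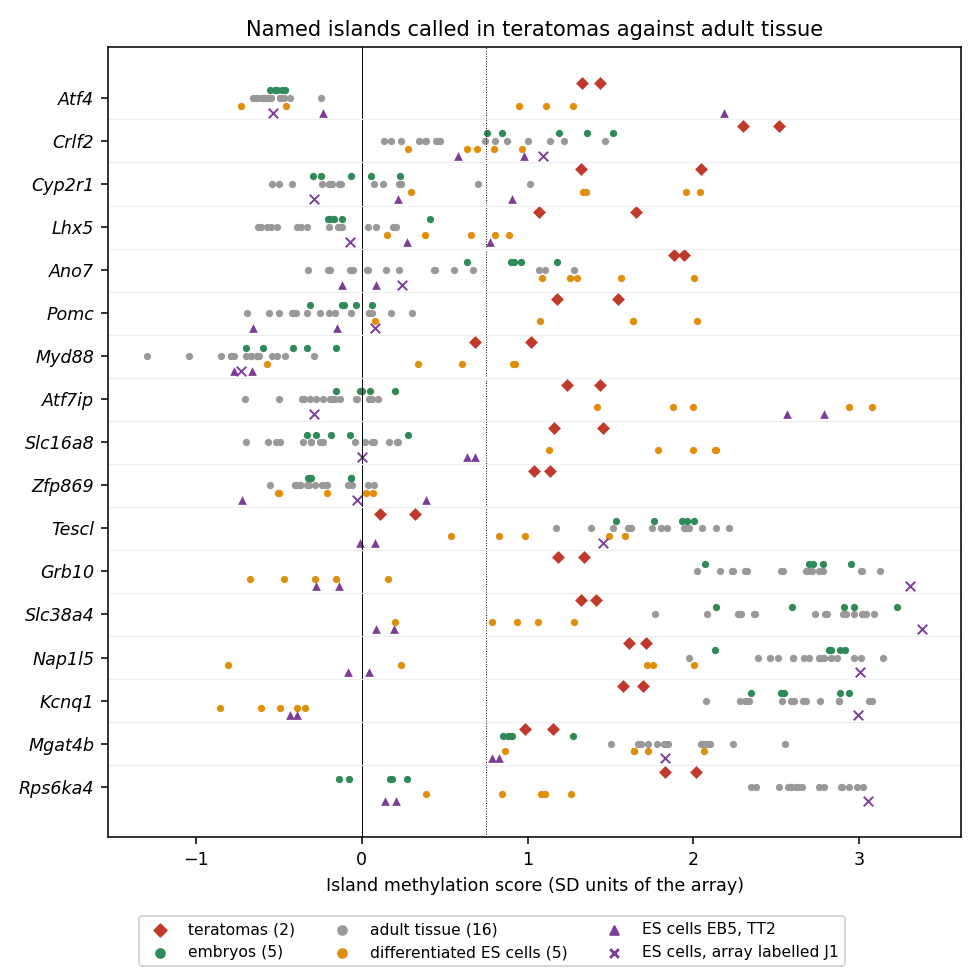
Island methylation scores (horizontal axis, SD units) at the 10 named islands called higher and the 7 called lower in teratomas, 1 row per island and 1 point per array. The teratomas (red diamonds) lie beyond all 16 adult points (grey) in every row, right of them from Atf4 to Zfp869 and left of them from Tescl to Rps6ka4.

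Of the 37 higher islands 8 carry no gene name in the files. One of them, chosen after its values were seen, had the largest difference of all: at chr9:123773613 (6 probes) the teratomas scored 2.91 and 2.92 and adult arrays -0.51 to 0.56 (2.95 ± 0.20, limma adjusted p = 1.28e-08). EB5 scored 3.44, TT2 1.47 and differentiated cells 1.20 to 1.94, while embryos had -0.10 to 0.32 and the array labelled J1 had 0.22. Its input signal was 0.30 log2 units lower in the teratomas, both below the adult range, and its part was not tested. By group, the median over the 37 higher islands was 0.92 and 1.01 in the teratomas, -0.37 to -0.08 on adult arrays, -0.164 to -0.00244 on embryo arrays, 0.13 to 0.80 in differentiated and -0.07 to 0.37 in undifferentiated ES cells. These islands were chosen for their difference from adult tissue, so the adult values are no independent finding.

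The study asks how many islands free of methylation in normal tissue become methylated in ES cell derivatives. Scored on islands below 0 on the adult arrays of all tissues but one, the teratomas had on average 3.125 and 4.125 islands above 0.75. The adult arrays, each scored on islands chosen without its own tissue, had 0 to 7, with a median of 0 and the highest number on colon replicate 1. The difference of 2.5 did not pass a two-sided exact permutation test of the arrays (p = 0.0588, where the smallest this design allows is 0.00654). Without colon replicate 1 it was 2.9 with an exact p of 0.0147, and of 15 other ways of counting 9 passed and 6 did not. Embryos had 0.125 to 2.25 islands and differentiated ES cells 24 to 89.8.

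Of the 4446 islands below 0 on all 16 adult arrays, 3 exceeded 0.75 in teratoma 1 and 4 in teratoma 2, and 1 did in both (0.00753% of all islands), that of Atf4. Those of teratoma 1 were Atf4, Myd88 and Api5, an inhibitor of apoptosis, and those of teratoma 2 included Zfp709 and Klhl9. Api5, Zfp709 and Klhl9 were called higher with differences of 1.15, 1.00 and 1.22. In the opposite direction 0 of the 980 islands above 0.75 on all adult arrays fell below 0 in either teratoma, the lowest being Tescl. Counted without the own tissue, losses were 0 in both teratomas, 0 to 2 on adult arrays, 3.125 to 19.25 in embryos and 8.125 to 13.25 in differentiated cells. EB5 had 44.9, TT2 20.2 and the array labelled J1 had 0.

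The gene lists other than the imprinted genes held few calls. Of 229 islands of Zfp zinc finger genes 3 were called higher and 0 lower, at Zfp869, Zfp445 and Zfp709, against 0.279% higher over all islands, with a median difference of 0.10. Both teratomas were above all adult arrays at 4.37% of them, against 1.97% of all islands. Zfp445, which binds imprinting control regions, scored 0.75 and 1.23 at its start against -0.84 to 0.33 (1.15 ± 0.24, limma adjusted p = 0.0396) and lost its call in 21 of 46 alternatives, and Zfp709 scored 0.43 and 1.01 against -0.75 to -0.00417 (1.00 ± 0.18, adjusted p = 0.0085 in limma). Of 150 islands of ectoderm and neural regulators Lhx5 was the 1 called higher. Of 129 islands of mesoderm and 52 of endoderm regulators 0 were called, against 0.332% of all islands, with median differences of -0.00597 and -0.000914.

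Germline genes, whose islands are methylated in somatic cells, had 39 islands of which 24 lay above 0.75 on all adult arrays, and 0 were called. Over all islands 0.332% were called, so 0 calls in lists of this size, here and below, do not set their genes apart. The largest difference there was at Adad1, a testis gene, with 1.51 and 1.65 in the teratomas against 2.18 to 3.57 (-1.16 ± 0.28, limma adjusted p = 0.089). Pluripotency genes had 37 islands with 0 called, and the largest difference was at Sall1 (-0.77 ± 0.32, adjusted p = 0.565 in limma). Hox genes, the body axis regulators, had 66 islands with 0 called and none with both teratomas beyond the adult range. At Hoxd3, the one with the largest difference, adult arrays themselves ran from -0.53 to 2.72 and the teratomas had 1.29 and 1.25. Clustered histone genes had the highest median of the lists, 0.25 over 26 islands, without a call, and the largest difference, at H2ac6 and H2bc4, was 1.00 ± 0.44 (adjusted p = 0.618 in limma). The teratomas scored 0.85 and -0.09 there. Adult arrays of the smaller grid, which the teratomas share, had -0.41 to 0.47, and those of the larger grid had -1.49 to -0.22. Among the alternatives the difference went down to 0.43.

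Host cells were examined through genes of blood and endothelium. Of 35 islands of blood and immune genes and 47 of endothelial genes 0 were called, with median differences of 0.05 and 0.02. Over all islands the share called was 0.332%. Ikzf1, a lymphoid regulator, scored -0.91 and -0.22 against -0.32 to 0.21, and Dll4, an endothelial Notch ligand, 0.02 and 0.26 against 0.42 to 1.88. The methylation of these genes does not measure a share of host cells. Of 61 islands of tumour suppressors and 25 of the DNA methylation machinery 0 were called either, and Kdm2b, which binds unmethylated islands, had the largest difference of the latter (-0.95 ± 0.57, adjusted p = 0.705 in limma).

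**Figure D5:**
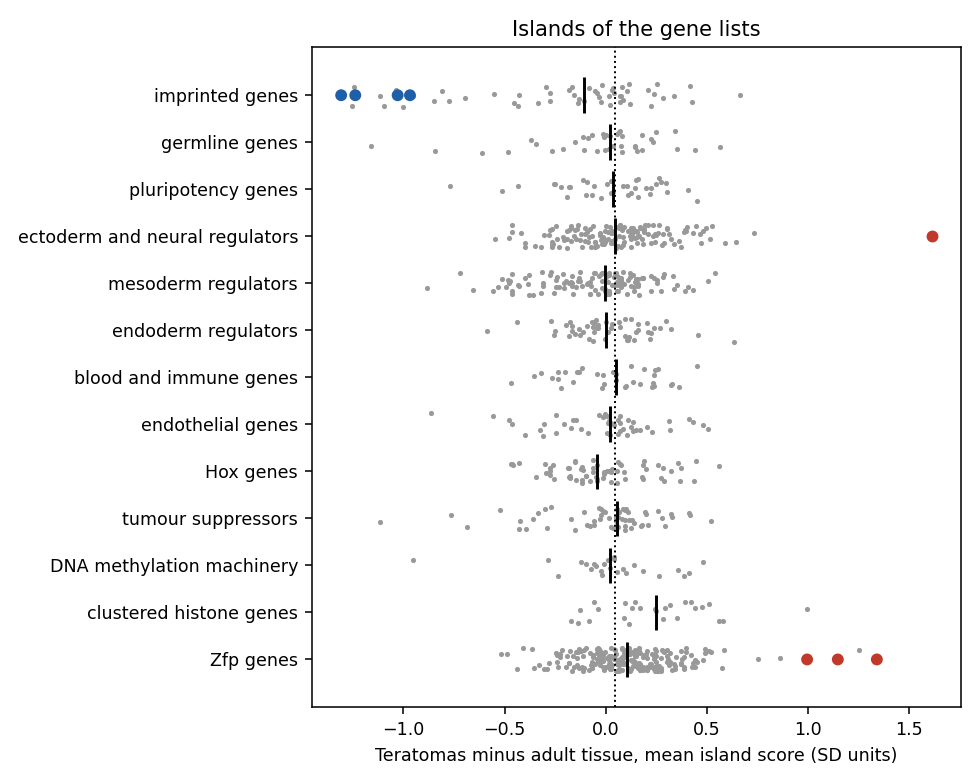
Teratoma minus adult mean of the island methylation score (horizontal axis, SD units) for every island of 13 gene lists, 1 point per island, with the median of each list as a bar and that of all 13272 islands as a dotted line at 0.05. Called islands are large points, 4 imprinted ones on the lower side (blue) and 1 ectoderm and 3 Zfp islands on the higher side (red).

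By the label that the array annotation gives, the 7 losses were all marked as inside genes, a class that holds 61.7% of the islands. This label includes islands at starts and does not mean the gene body. Of the 7 losses 2 lay within 150 bases of a start, and Atf4, Myd88, Atf7ip and Cyp2r1 carry the same label. Of the 37 gains 21 were labelled inside, 5 promoter, 2 divergent promoter, 1 downstream and 8 had unnamed positions. The share of islands called was 0.342% for the label inside, 0.2% for promoter and 0.459% at unnamed positions, against 0.332% of all islands.

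Across islands the teratomas resembled several groups to a like degree. The mean Pearson r with the arrays of a group was 0.92 for pancreas, 0.916 for spleen, 0.914 for kidney, 0.913 for muscle, 0.912 for embryos and 0.883 to 0.894 for liver, colon, lung and brain. Single pairs ran from 0.858 to 0.932 with adult and from 0.856 to 0.94 with embryo arrays, so the order among tissues lies within the spread of the pairs. Differentiated ES cells were lower, with a mean of 0.818, TT2 at 0.81 and EB5 at 0.833, and the array labelled J1 was at 0.908. The teratomas were correlated with each other at 0.957. These correlations run across islands, which share probes' base composition, and are a description without a test. Against embryos 33 islands were called (27 higher and 6 lower, 0.249%), against differentiated ES cells 902 (202 higher and 700 lower), 6.8% of the islands tested, in limma with all 5 groups in the fit. The first count was 569 with teratomas and embryos fitted alone, 1 without teratoma 2, 7 without teratoma 1 and 17 to 24 without any 1 of the embryos, and the second was 135 without teratoma 1, 199 without teratoma 2 and 1498 without the retinoic acid array. Against the 3 undifferentiated ES cell arrays, which differ widely among themselves, there were 16 or 0.121% (14 higher, 0.105%, and 2 lower, 0.0151%).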

How the data were processed

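Methylated DNA of mouse cells and tissues was measured by mDIP on 2-colour arrays, of which 31 entered the fits and counts. The authors scanned them and, per the file headers, extracted the intensity of each spot and its background with Agilent Feature Extraction, which took off the background and normalized the dyes linearly. The values used are the authors' log10 ratio of bound over input in the scanner files. The authors' deposited table holds a score per probe (a Z-score, by the methods according to probe Tm) and served as an alternative. Island positions are printed as the files give them, and their build is not given in the sources used here.

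Control and flagged spots were left out, and each array's log10 ratios were turned into Z-scores, without the Tm step. Runs of at least 3 probes printed on both grids, with gaps of at most 500 bases, formed 13272 autosomal islands. X was dropped. Gene names (12013) were set against a RefSeq table: 8575 were symbols in use, 2120 synonyms and 1029 pairs, and 289 were kept unmatched. Groups follow the labels. Teratomas were compared with adult tissue in limma 3.58.1 (R 4.3.3), and with embryos and ES cells in a fit of 5 groups. Numbers per array were compared by exact permutation tests. On simulated data with 200 of 13272 islands changed by 1, 84.5% were recovered and 7.14% of calls were unchanged islands. The simulated arrays were independent with normal noise, whereas the real ones correlated at 0.325 within slides and 0.238 within scan days. These rates therefore need not hold for the real arrays. Other steps used Python 3.11.15, numpy 2.4.6 and pandas 2.3.3. The number of arrays limits the precision.

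Named islands were, in each direction, the 10 with the largest difference among those called and with both teratomas beyond all adult arrays, the 5 most extreme past the thresholds 0 and 0.75 on both teratomas, and up to 4 called islands of each gene list, or else the 1 with the largest difference; 1 island per gene, none on X, Y or 18. Other names were chosen after their values were seen. Members and gene lists were chosen with earlier results of these data known. Replicate numbers do not pair arrays: the difference between teratomas 1 and 2 correlated with those of the 8 tissues at -0.17 to 0.11. Alternatives covered standardisation, background, source, dim probes, island rules, scale, the fit, batches, thresholds and arrays left out.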

Additional observations from a re-analysis of the deposited data

Results flagged for a closer look

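At 5 named islands 1 embryo array stood apart from the other 4, by Dixon's test at the 95% level in groups of 5 arrays. There were 62 tests, and chance alone flags about 1 in 20. The embryos are not replicates, since each is of a different age. Embryo 1 is the youngest, and embryo 5 is the oldest and the only one labelled female. Embryo 1 also had a different scanner software version from the other embryos, and it shared its slide and scan day with TT2. Its median bound signal was 4.32 times its background, against 1.95 to 2.28 on the other embryo arrays. The part of age, sex or these array differences in the values was not tested. Lhx5 scored 0.4091 in embryo 4 and -0.2055 to -0.1192 in the others. In embryo 1, Grb10 scored 2.067 against 2.699 to 2.948, Nap1l5 scored 2.129 against 2.818 to 2.912, and the island of H2ac6 and H2bc4 scored -1.628 against -0.1845 to 0.01126. Mgat4b scored 1.277 in embryo 5 against 0.8493 to 0.9075. Both teratomas stayed below embryo 1 at Grb10 and Nap1l5 and above embryo 4 at Lhx5.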

How the results depend on the processing

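A block for the software version is the same fit as that without teratoma 2 and no separate alternative. The numbers of alternatives given for single islands nevertheless count both. Against adult tissue, the 44 calls became 27 in a fit of all 5 groups, 24 with median and MAD standardisation and 293 with normexp. They became 26 of 8564 islands with at least 5 probes, 226 with the 2 arrays of each tissue averaged, and 1027 by the methods' t-test without adjustment (40 after Benjamini-Hochberg). With 1 array left out they ranged from 11 (without teratoma 2) to 53 (without colon replicate 2). With normexp 31 of the 44 were among the calls, and without teratoma 2 there were 10. Replicate numbers did not pair the arrays: 1 of 8 correlations exceeded 0.1, and with the replicate number as a block 49 were called (41 higher and 8 lower), 4 of them imprinted and lower.

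Against embryos, the 33 calls became 17 with median and MAD standardisation, 12 with normexp, 17 on the median-centred log2 ratio and 569 when teratomas and embryos were fitted alone. They ranged from 1 to 36 with 1 array left out (7 without teratoma 1, 1 without teratoma 2). Against differentiated ES cells, 902 became 374 (36 higher and 338 lower), 249 with normexp (21 and 228), 438 of 5709 in the deposited table, 469 with at least 5 probes and 463 on log2 ratios. They ranged from 135 without teratoma 1, through 199 without teratoma 2, to 1498 without the retinoic acid array.

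The 4 imprinted islands called lower became 0 in the fit of 5 groups, with median and MAD standardisation, normexp and log2 ratios. The spread in the fit of 5 groups includes that among the undifferentiated ES cell arrays, which differ widely at these 4 islands. There were 2 with at least 5 probes, the eBayes trend, the grid as a block, adult arrays of the smaller grid, the t-test, and without both brain, kidney or spleen arrays. There were 13 with tissue means and 9 without both colon arrays, and 0 to 8 with 1 array left out. The 13 imprinted islands below all adult arrays became 5 with median and MAD standardisation, 1 with normexp, 8 of 33 in the deposited table, 8 of 38 on bright probes and 2 on log2 ratios, and were 13 to 17 with 1 array left out.

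The excess of 2.5 gained islands passed the exact permutation test at 4.25 with median and MAD standardisation, 4.75 with normexp, 2.5 in the deposited table, 3.438 on bright probes, 3.062 with at least 5 probes, 3 with wider gaps allowed within an island, 2.688 with all probes, 3 when an adult array alone was left out of the choice, and 0.5625 at a threshold of -0.25. It was 1.9 to 3 with 1 array left out. The median difference over all islands, 0.05, became -0.05 on bright probes and 0.008 against adult arrays of the smaller grid. None of the 19 named islands called changed sign, and 3 of them (Atf4, Myd88 and Zfp869) were called under every alternative that scored them. The causes of these changes were not tested. Normexp used median in place of mean signals, a change made once the data had been seen, and the leave-outs of embryos and differentiated cells, the use of all probes and the count of imprinted islands below all adult arrays were added at the same point.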
